A study of Mus musculus with 4 samples.

Results

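Histone genes encode the proteins around which nuclear DNA is wound, and they were followed here in the CD45-negative cells of the mouse lung after bleomycin. Members were all genes whose array symbol or current symbol carries a histone name by 2 fixed patterns (Hist1h to Hist4h in the older nomenclature, or H1f, H2ac, H2bc, H3c, H4c, H2az, H2af, H3f3 and H1fx), taken from rows that name exactly 1 gene symbol, with the highest-mean row kept per gene. This gave 45 of 30141 genes, and no member shared its values with another gene. They comprised 24 replication-dependent genes of the large histone clusters, 8 variant genes, 6 genes of germline histones and 7 pseudogenes. The replication-dependent class was assigned by gene name, so it can hold a gene that is also made outside S phase, such as H2bc21. Read literally, with the first pattern applied only to array symbols and the second only to current symbols, the rule takes 39 of the 45. The other 6 carry array symbols that start with H2af and now bear other names. Another 43 rows name a histone gene together with at least 1 other symbol, and these are described apart.

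The BLM group comprised 2 arrays from C57BL/6 mice given bleomycin (BLM) into the trachea, and the PBS group 2 arrays from C57BL/6 mice given phosphate-buffered saline (PBS). Both were taken 10 days later, from lung cells that lack CD45, the surface marker of leukocytes. Bleomycin breaks DNA and is widely used to produce lung fibrosis in mice. The labels do not tell whether the 2 arrays of a group hold different animals, and the p-values therefore reflect array-to-array spread alone, which may be technical. Values are log2 expression values, and differences are BLM minus PBS on that scale with their standard error (SE), from limma over all 30141 genes with Benjamini-Hochberg adjustment and a threshold of 0.05. Rose and fell are used only of genes past it, and n is 2 arrays per group throughout.

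Replication-dependent histones are made in S phase, when new DNA has to be packed. Their genes lie in clusters, lack introns, and give messenger RNAs that end in a stem-loop bound by the protein SLBP where most mRNAs carry a poly(A) tail. Variant histones are made throughout the cell cycle from separate genes, mostly as polyadenylated mRNA, and replace the replication-dependent forms at particular places in chromatin. How strongly RNA without a poly(A) tail was labelled on these arrays was not tested.

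Medians over genes differed little between arrays, at 6.03 and 6.03 on the BLM arrays and at 6.03 and 5.99 on the PBS arrays. Xist, the RNA of the inactive X chromosome, was at 5.60 and 5.43 on the BLM arrays and at 15.86 and 15.61 on the PBS arrays, so treatment and this difference in Xist cannot be told apart for any gene below. Ptprc, which encodes CD45, was at 7.19 and 7.20 on the BLM arrays and at 6.30 and 6.21 on the PBS arrays, and it rose (difference 0.94, SE 0.08, adjusted p = 0.00166). Of 12 macrophage markers 10 rose and 1 fell, with a mean log2 value over the list of 9.43 and 9.51 on the BLM arrays, against 7.85 and 7.89 on the PBS arrays. The macrophage growth factor receptor gene Csf1r was among them, at 7.52 and 7.32 on the BLM arrays, against 6.81 and 6.83 on the PBS arrays. Of 7 fibroblast markers 6 rose and none fell, with list means of 13.16 and 13.10 on the BLM arrays, against 10.69 and 10.78 on the PBS arrays. Of 7 epithelial markers 4 fell and none rose, with list means of 13.92 and 13.84 on the BLM arrays, against 14.46 and 14.49 on the PBS arrays. Among 8 endothelial markers 3 rose and 1 fell. Of 10 T and NK cell markers 2 rose, of 8 neutrophil markers 2 rose, of 7 B cell markers 1 fell, and of 3 erythroid markers 1 fell. The T cell gene Cd3e and the neutrophil receptor gene Csf3r did not pass, at 0.33 and 0.23. The part of these shifts in the histone values was not tested, and in such mixed samples fewer cells of a type and less RNA per cell cannot be told apart.

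The promoters of 5 replication-dependent members that changed are printed first, since they show what the genes of a histone cluster share and how alike a neighbouring pair can be. The windows are RefSeq's, on GRCm38.p6, from 250 bases before to 50 bases after the annotated start, and 35 of the 45 members matched one. Capitals mark 3 motifs found on either strand, the TATA box (TATAAA), the CCAAT box (CCAAT) and the octamer (ATTTGCAT), which as background is bound by OCT1 in H2B promoters. On the minus strand the CCAAT box reads ATTGG and the octamer ATGCAAAT, and the motifs share no bases in these windows. The windows are at chr3:96269450-96269749, plus strand, for H2bc18; at chr3:96240325-96240624, minus strand, for H2ac19; at chr3:96245247-96245546, plus strand, for H2ac18; at chr3:96220831-96221130, minus strand, for H2ac20; and at chr13:21753863-21754162, minus strand, for H2ac15. The first 4 genes lie in the cluster on chromosome 3 and fell in BLM, while H2ac15, on chromosome 13, rose.
H2bc18: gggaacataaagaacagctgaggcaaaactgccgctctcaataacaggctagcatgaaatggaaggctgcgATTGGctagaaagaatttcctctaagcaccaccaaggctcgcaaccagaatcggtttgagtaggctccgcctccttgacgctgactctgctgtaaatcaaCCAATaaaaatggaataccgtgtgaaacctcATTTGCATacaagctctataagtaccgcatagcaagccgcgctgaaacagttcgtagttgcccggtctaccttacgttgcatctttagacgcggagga
H2ac19: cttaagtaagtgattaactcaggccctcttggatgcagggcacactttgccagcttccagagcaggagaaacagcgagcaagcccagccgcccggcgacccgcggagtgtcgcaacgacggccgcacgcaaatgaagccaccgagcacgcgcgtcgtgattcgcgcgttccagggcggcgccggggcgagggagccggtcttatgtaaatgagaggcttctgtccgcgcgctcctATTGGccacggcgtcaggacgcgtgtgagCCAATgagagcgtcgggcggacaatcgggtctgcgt
H2ac18: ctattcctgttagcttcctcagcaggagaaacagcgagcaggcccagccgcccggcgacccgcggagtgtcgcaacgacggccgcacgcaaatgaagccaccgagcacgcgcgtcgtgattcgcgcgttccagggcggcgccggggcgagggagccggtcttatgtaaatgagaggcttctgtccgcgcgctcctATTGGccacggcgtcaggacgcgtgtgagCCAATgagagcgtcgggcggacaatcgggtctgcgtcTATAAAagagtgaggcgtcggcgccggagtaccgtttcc
H2ac20: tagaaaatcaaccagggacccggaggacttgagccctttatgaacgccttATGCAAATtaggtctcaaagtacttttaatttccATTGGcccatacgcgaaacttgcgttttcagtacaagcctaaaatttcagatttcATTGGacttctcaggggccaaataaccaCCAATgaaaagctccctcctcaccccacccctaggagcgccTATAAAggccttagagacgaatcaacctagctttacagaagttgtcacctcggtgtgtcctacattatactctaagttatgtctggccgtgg
H2ac15: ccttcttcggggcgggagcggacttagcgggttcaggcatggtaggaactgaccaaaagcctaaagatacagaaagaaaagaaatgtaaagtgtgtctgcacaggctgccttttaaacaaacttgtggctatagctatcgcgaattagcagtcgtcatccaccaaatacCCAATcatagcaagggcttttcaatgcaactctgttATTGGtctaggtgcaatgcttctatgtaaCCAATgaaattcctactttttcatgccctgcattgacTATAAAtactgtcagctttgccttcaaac

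All 5 windows hold a CCAAT box, and those of H2bc18 and H2ac20 also hold the octamer. H2ac19 and H2ac18 share an unbroken run of 219 bases, offset between the windows because their annotated starts differ. Over all replication-dependent members with a window, the CCAAT box occurred in 21 of 22 (95.5%), the TATA box in 12 (54.5%) and the octamer in 6 (27.3%). A match was counted wherever it stood. The TATA box of H2ac15, H2ac18, H2ac12 and H4c1 lies after the annotated start, and that of H2bc12 and H2bc22 well before it on the minus strand. One in H1f1, H1f3, H1f5, H2ac20 and H2ac21 lies 26 to 42 bases before the start, and that of H2bc3 10 bases. Of 7 variant members with a window, 4 held the CCAAT box and none the TATA box or the octamer, and of 6 germline members 4, 2 and 2 held them in that order. Across the 32851 windows of the whole table the shares were 37.4% for the CCAAT box, 13.6% for the TATA box and 1.74% for the octamer. Among replication-dependent members the octamer stood in 4 of 6 H2B windows and in 2 of 8 H2A windows, and the germline genes that hold it are H2bc1 and H2ac1. Windows of neighbouring genes can overlap. The octamer of H2ac12 is the same stretch of bases as that of H2bc12, and H2ac1 and H2bc1 share theirs. Each pair also shares a TATA box, so the counts are of windows and not of separate sites. The CCAAT box stands in the window of H2ac15, which rose, as in those of the 4 genes printed that fell. A match of letters is a description, not a binding site.

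Over all 4 arrays, more replication-dependent histone genes fell than rose. Of 24 members 7 fell, 1 rose and 16 did not pass, against a background of 25.3% of all genes called, 15.2% higher and 10.1% lower in BLM. As shares of the 24 genes, 29.2% fell and 4.17% rose. The count moved with every array left out: 3 fell and none rose without BLM replicate 1, 1 fell and 2 rose without BLM replicate 2, 4 fell and none rose without PBS replicate 1, and 5 fell and none rose without PBS replicate 2. Of the 8 calls, 3, 2, 3 and 5 remained in these fits, while the share of all genes called was 13.3%, 14.5%, 19.1% and 19.8%. With dim genes left out 6 of the 11 remaining members fell and 1 rose, against 21.9% of all remaining genes lower and 31.5% higher. Their median difference was -0.17, against 0.05 over all genes, with single differences from -1.21 to 0.83. After cyclic loess scaling, which lowered the share of higher calls over all genes to 49.6% from 60.1%, the same 8 members passed and the median was -0.21. The BLM and PBS values did not overlap for 18 of the 24 (75%), against 63.3% of all genes. Of the 24, 13 had a mean value below 6.03, the median over genes. The array's background controls reached 7.07 on PBS replicate 1 and at most 6.39 on the other arrays. A mean below 7.07 was found for 29 of the 45 members. These included 5 of the 8 replication-dependent members called (H1f1, H2ac19, H2ac20, H1f3 and H2ac18). Most genes of the array lay below 7.07 too, as 60.2% of all genes had a lower mean than H1f1, the brightest of these 5.

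The H2B gene H2bc18, listed on the array as Hist2h2bb, showed the deepest fall of all members. It was at 6.83 and 6.61 on the BLM arrays, against 8.02 and 7.83 on the PBS arrays. Both BLM arrays lay below both PBS arrays, by far more than arrays of a group differed. Its difference was -1.21 (SE 0.12, adjusted p = 0.00222), a 2.31-fold lower level, and it passed under all 11 alternatives (differences without each array in turn of -1.32 to -1.10). H2bc21, another H2B gene, whose product in mouse olfactory neurons is known to be made outside S phase, was at 9.09 and 8.82 on the BLM arrays, against 9.63 and 9.55 on the PBS arrays. Every BLM value was below every PBS value, with a difference of -0.63 (SE 0.12, adjusted p = 0.0155). The H2bc21 call ended without BLM replicate 2 and without PBS replicate 1 (adjusted p = 0.0631 in each case).

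**Figure D1:**
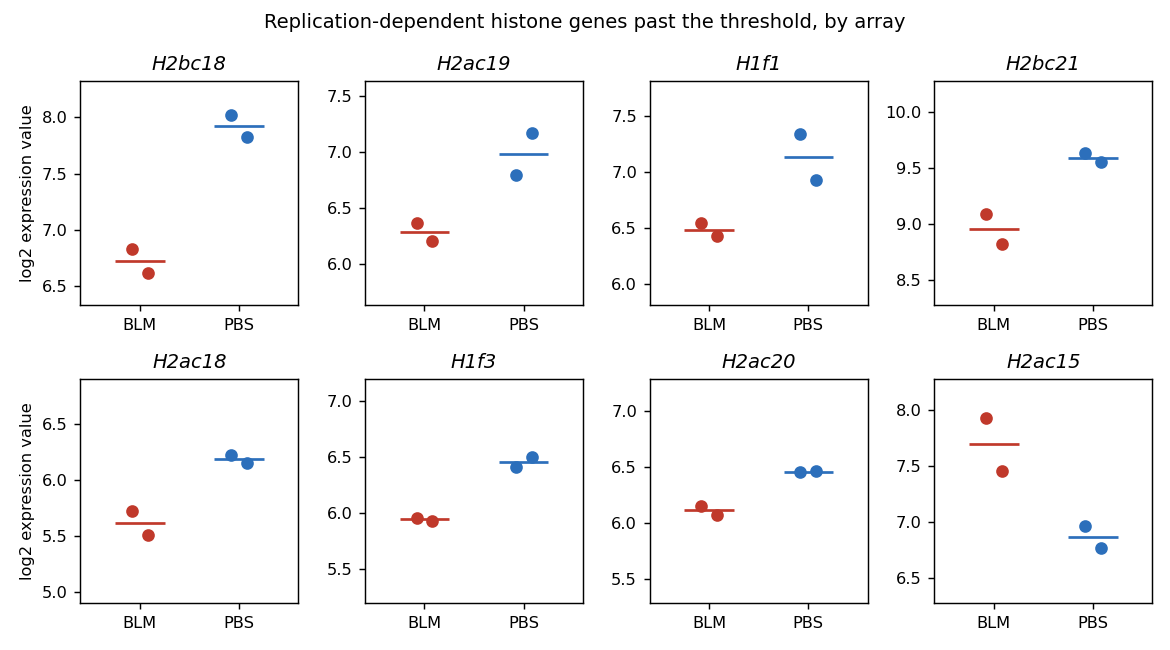
Log2 expression values of the 8 replication-dependent histone genes past the threshold, with 1 point per array, a line at the group mean, BLM on the left and PBS on the right of each panel, and the same height of 2 log2 units in every panel. The BLM points lie below the PBS points in 7 panels and above them for H2ac15, by 0.35 to 1.21 log2 units on average.

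Among H2A genes, which encode the partner of H2B in the nucleosome, 3 of 8 fell, 1 rose and 4 did not pass, and without any 1 array 0 to 1 fell and 0 to 1 rose. In the fit of all 4 arrays, 10.1% of all genes fell and 15.2% rose. H2ac19 was at 6.36 and 6.20 on the BLM arrays, against 6.79 and 7.17 on the PBS arrays, a difference of -0.70 (SE 0.15, adjusted p = 0.0241). Its neighbour H2ac18 was at 5.72 and 5.51 on the BLM arrays, against 6.22 and 6.15 on the PBS arrays, so that it differed by -0.57 (SE 0.10, adjusted p = 0.0142). The groups did not overlap for either gene. The H2ac19 call ended without BLM replicate 1 (adjusted p = 0.0614), BLM replicate 2 (0.103) or PBS replicate 2 (0.0524), and that of H2ac18 without BLM replicate 2 (0.0717) or PBS replicate 1 (0.0579). The pair is duplicated, as the shared promoter run shows, so it is uncertain which copy each row measured. A row that names both copies and nothing else read 11.54 and 11.78 on the BLM arrays, against 11.90 and 12.01 on the PBS arrays, and did not pass (difference -0.29, SE 0.11, adjusted p = 0.127 in a fit with rows of several symbols added).

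H2ac20 was at 6.15 and 6.07 on the BLM arrays, against 6.45 and 6.46 on the PBS arrays, and differed by -0.35 (SE 0.08, adjusted p = 0.033). This was the smallest of the 7 falls. Its call needed all 4 arrays, while the difference ran from -0.38 to -0.31 with each array left out in turn. H2ac15 was the 1 replication-dependent gene that rose, at 7.93 and 7.46 on the BLM arrays, against 6.97 and 6.77 on the PBS arrays. The BLM arrays stood apart from each other by more than the PBS arrays did, yet the groups did not overlap, and the difference was 0.83 (SE 0.17, adjusted p = 0.0232). That call ended without BLM replicate 1 (adjusted p = 0.0607), PBS replicate 1 (0.053) or PBS replicate 2 (0.0895). H2ac10 stood at 14.33 and 14.34 on the BLM arrays, against 14.42 and 14.14 on the PBS arrays, and did not pass (difference 0.05, 95% interval -0.24 to 0.35, and -0.12 after cyclic loess scaling). Its row is far brighter than those of the other replication-dependent H2A genes, and whether it also measured related H2A transcripts was not tested. H2ac24, H2ac21 and H2ac12 did not pass either, at -0.26, -0.16 and 0.04.

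The linker histone H1 binds the DNA between nucleosomes. Of 4 replication-dependent H1 genes 2 fell and 2 did not pass, against 10.1% of all genes lower, and without BLM replicate 1 or BLM replicate 2 none of the 4 passed in limma. H1f1 was at 6.54 and 6.43 on the BLM arrays, against 7.34 and 6.93 on the PBS arrays, which gave -0.65 (SE 0.15, adjusted p = 0.0317). H1f3 was at 5.96 and 5.93 on the BLM arrays, against 6.41 and 6.50 on the PBS arrays, or -0.51 (SE 0.08, adjusted p = 0.0107). The groups of both genes were separate, and arrays of a group lay closer together for H1f3. The H1f1 call ended without BLM replicate 1 (adjusted p = 0.0892), BLM replicate 2 (0.121) or PBS replicate 1 (0.0562), and that of H1f3 without BLM replicate 1 (0.0589) or 2 (0.0672). H1f2 was at 12.81 and 12.69 on the BLM arrays, against 12.52 and 12.56 on the PBS arrays, and did not pass (difference 0.21, 95% interval -0.01 to 0.43, and 0.02 after cyclic loess scaling). H1f5, at 0.37 (95% interval 0.07 to 0.68, adjusted p = 0.0834), had no overlap between groups but did not pass either. Whether the H1 genes differed from each other in their change was not tested.

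The other H2B genes, H2bc12, H2bc22, H2bc9, H2bc14 and H2bc3, stood between 0.04 and 0.45 and did not pass. The H2bc12 value, 0.45, passed only without BLM replicate 2 (adjusted p = 0.0388). The 3 H3 genes that have rows of their own, H3c3, H3c7 and H3c8, stood at -0.55, -0.25 and -0.13, and the 2 H4 genes, H4c1 and H4c2, at -0.23 and -0.17. None of these 5 core histone genes passed in limma, and 2 of them, both H3, were lower at an unadjusted p under 0.05. H3c3 passed without PBS replicate 1 (adjusted p = 0.0345).

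Most H3 and H4 genes are so alike that their rows name several of them. Of the 43 rows that name a histone beside other symbols, 2 were higher and 9 lower in a fit with these rows added, or 25.6%, against a background of 25.2% of rows called in that fit. Of 7 rows naming only H3 genes 4 fell and none rose, with a median of -0.50, or 57.1% called against 25.2% in that fit. No array value of the 4 rows that fell reached 7.07, the highest background control. The brightest H3 rows, at 7.47 to 7.85 on the arrays, stood at 0.08 each and did not pass. The H3 rows name 4 or 8 genes each, so a row is not a result for 1 gene. Of 11 rows naming only H4 genes 2 fell and 1 rose, with a range of -0.95 to 0.66. Of 11 rows naming only H2A genes 1 fell and none rose, and of 9 naming only H2B genes 1 rose and none fell. The H2B row that rose, by 0.98 (SE 0.09, adjusted p = 0.002), was at 14.14 and 14.16 on the BLM arrays, against 13.09 and 13.24 on the PBS arrays, and it names 3 genes, so no gene can be given for it. The H4 row at -0.95 (SE 0.10, adjusted p = 0.00239) was at 6.30 and 6.41 on the BLM arrays, against 7.24 and 7.38 on the PBS arrays, and names 13 genes.

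By position, the 6 replication-dependent members on chromosome 3 and the 18 on chromosome 13 gave different counts. As background, 10.1% of all genes fell and 15.2% rose. On chromosome 3, 5 of 6 fell, 1 did not pass and none rose, at a median of -0.60. Fewer of the 6 passed with any 1 array left out, as did fewer of all genes. Their median was then -0.72 without BLM replicate 1, -0.48 without BLM replicate 2, -0.57 without PBS replicate 1 and -0.56 without PBS replicate 2. On chromosome 13, 2 of 18 fell, 1 rose and 15 did not pass, at a median of 0.04. With each array left out in turn this median ran from -0.04 to 0.05. After cyclic loess scaling the medians were -0.66 and -0.06. The BLM and PBS values did not overlap for 6 of 6 members on chromosome 3, H2ac21 included, and for 12 of 18 on chromosome 13, against 63.3% of all genes. In RefSeq order along chromosome 3 the genes are H2ac21, H2ac20, H2bc21, H2ac19, H2ac18 and H2bc18, and the last of these had the deepest fall. This grouping was chosen after the values were seen and the difference between chromosomes was not tested. The 2 duplicated H2A genes share sequence, so the 6 are not 6 separate measurements. These counts leave out the rows with several symbols. None of the several-symbol histone rows whose array identifiers carry chromosome 3 passed. They stood at -0.29, -0.24 and -0.20 and, where they name only H3 genes, at 0.05, 0.08 and 0.08. Several-symbol H3 rows carrying chromosome 13 fell, at -0.76, -0.57, -0.51 and -0.50.

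**Figure D2:**
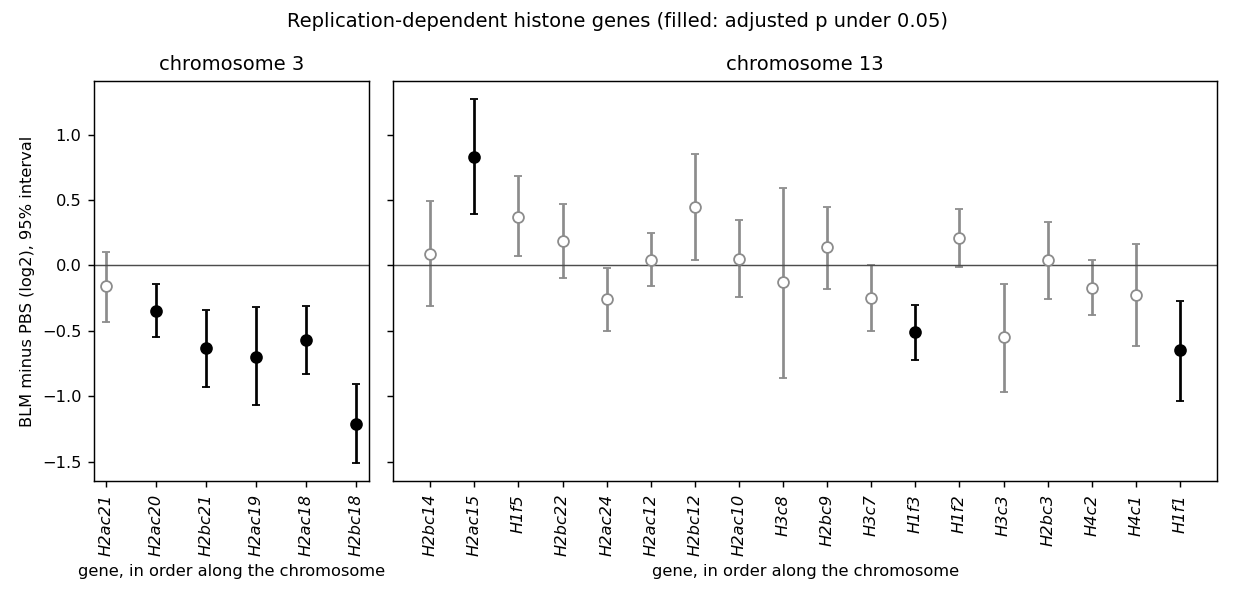
BLM minus PBS differences (log2) with 95% intervals for the replication-dependent histone genes that have a row of their own, in their order along chromosomes 3 and 13. Filled points mark an adjusted p under 0.05. All 6 such genes on chromosome 3 lie below 0, from -1.21 to -0.16, while those on chromosome 13 lie on both sides of it, from -0.65 to 0.83.

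Variant histones mostly did not pass. Of 8 members 1 rose, none fell and 7 did not pass in limma, 12.5% called against 25.3% of all genes, and at an unadjusted p under 0.05 the counts were 2 higher and 0 lower. Their median difference was 0.06, against 0.05 over all genes and -0.17 for the replication-dependent genes. The difference between these classes was not tested, as members of a list are not replicates. Cyclic loess scaling brought the variant count to 0 higher and 1 lower.

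H3f3c, which encodes an H3.3-type histone in mouse, was at 11.03 and 10.64 on the BLM arrays, against 10.29 and 10.30 on the PBS arrays, and rose by 0.54 (SE 0.14, adjusted p = 0.0458). BLM replicate 1 stood above BLM replicate 2, and both lay above the PBS arrays. The call ended without BLM replicate 1 (adjusted p = 0.143), PBS replicate 1 (0.13) or PBS replicate 2 (0.12) and after cyclic loess scaling (0.0928). A pair of H3.3 pseudogenes, H3f3a-ps1 and H3f3a-ps2, gave similar values, at 0.35 (SE 0.09, adjusted p = 0.0448) and 0.49 (SE 0.13, adjusted p = 0.048), and both lost their calls with median centring (0.0516 and 0.0531) and after cyclic loess scaling (0.229 and 0.138). With any 1 array left out H3f3a-ps1 did not pass (0.227 where BLM replicate 1 was missing), and H3f3a-ps2 kept its call in that test only without BLM replicate 2 (0.0296). These genes resemble the H3.3 genes H3f3a and H3f3b, so which transcript their rows measured is uncertain. The 2 rows that name H3.3 genes together with other symbols stood at -1.03 (SE 0.10, adjusted p = 0.00193) and -0.03. The first was at 10.87 and 10.92 on the BLM arrays, against 12.01 and 11.84 on the PBS arrays, so rows assigned to H3.3 sequences moved in opposite directions.

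The H2A variants serve different tasks. H2az1, the gene of H2A.Z, which marks promoters, was at 15.70 and 15.58 on the BLM arrays, against 15.98 and 15.77 on the PBS arrays. The groups did not overlap but the difference of -0.23 (95% interval -0.50 to 0.04, adjusted p = 0.189) did not pass, except after cyclic loess scaling, at -0.40 (adjusted p = 0.0371). H2az2, which encodes the second H2A.Z form, was at 11.58 and 11.52 on the BLM arrays, against 11.58 and 11.54 on the PBS arrays, with a difference of -0.01 (95% interval -0.22 to 0.19). H2ax, whose product is phosphorylated beside DNA breaks, was at 8.09 and 8.03 on the BLM arrays, against 8.07 and 7.92 on the PBS arrays. Its groups overlapped, and the difference was 0.07 (95% interval -0.17 to 0.30, adjusted p = 0.661), a range that leaves out a change of 2-fold either way. Cdkn1a, a cell cycle inhibitor gene induced by p53 after DNA damage, stood at 14.98 and 14.93 on the same BLM arrays, against 11.95 and 12.20 on the PBS arrays, and rose by 2.88 (SE 0.11, adjusted p = 0.000308). Cdkn2a, another inhibitor gene, used as a marker of senescence, did not pass, at 0.21.

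H2aj, whose product accumulates in senescent human fibroblasts, was at 11.43 and 10.76 on the BLM arrays, against 11.36 and 11.19 on the PBS arrays. The BLM arrays lay on both sides of the PBS arrays, and the difference of -0.18 (SE 0.23, 95% interval -0.74 to 0.39) turned to 0.16 without BLM replicate 2. Macroh2a1 and Macroh2a2 encode macroH2A, which is enriched on the inactive X chromosome. Macroh2a1 was at 9.15 and 9.13 on the BLM arrays, against 8.97 and 9.06 on the PBS arrays, a difference of 0.13 that did not pass (adjusted p = 0.337) and stood at -0.04 with the mean of its rows. Macroh2a2 was at 6.29 and 6.17 on the BLM arrays, against 5.99 and 5.95 on the PBS arrays, and its difference of 0.26 (adjusted p = 0.0888) passed only with dim genes left out of the fit (0.0389). The linker variant gene H1f10 was at 4.21 and 4.28 on the BLM arrays, against 4.20 and 4.20 on the PBS arrays, in the dim range, and did not pass, at 0.05 (-0.00 after cyclic loess scaling).

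**Figure D3:**
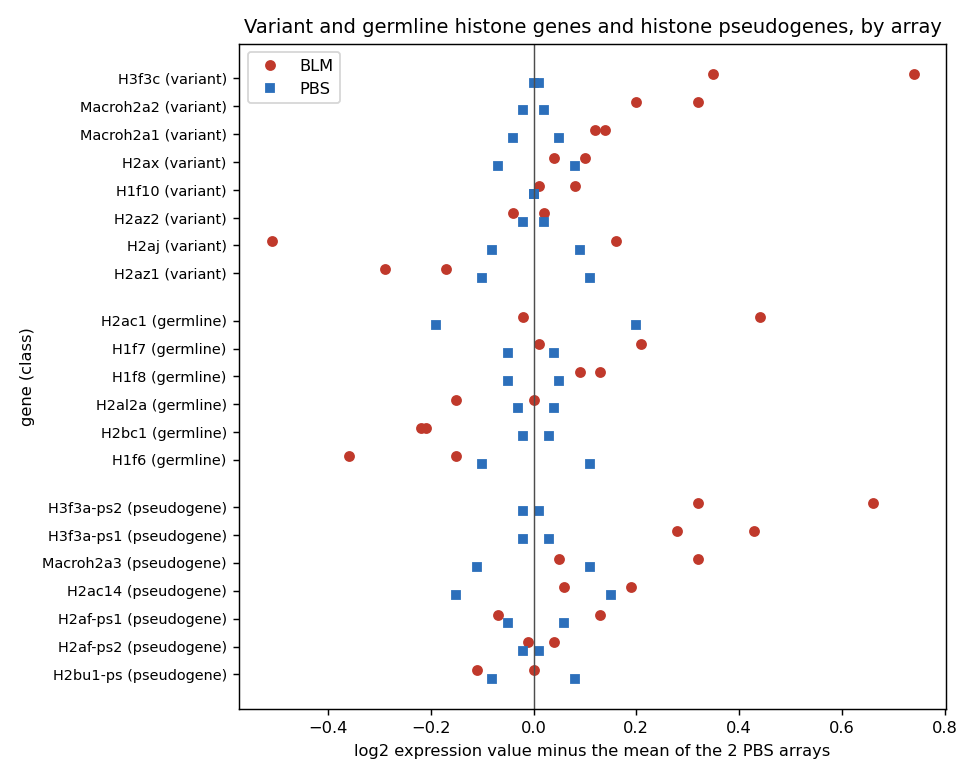
Log2 expression values of the variant and germline histone genes and of the histone pseudogenes, each array shown as its value minus the mean of the 2 PBS arrays, with BLM as circles above PBS as squares. H3f3c, H3f3a-ps2 and H3f3a-ps1 show both BLM circles to the right of the PBS squares, with mean shifts of 0.54, 0.49 and 0.35. Macroh2a2, Macroh2a1, H1f8 and H1f10 do so too, with smaller shifts of 0.26, 0.13, 0.11 and 0.05, and did not pass. The BLM circles of H2aj fall on both sides of its squares.

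Germline histone genes replace the somatic forms in sperm and egg cells. None of the 6 members passed in limma, against 25.3% of all genes, and at an unadjusted p under 0.05 the counts were 0 higher and 1 lower. They stood between -0.26 and 0.21, and 4 of the 6 had a mean value below 6.03. The testis linker gene H1f6 was at -0.26, the testis H2B gene H2bc1 at -0.22 and the spermatid H2A gene H2al2a at -0.08. The spermatid linker gene H1f7 and the oocyte linker gene H1f8 both stood at 0.11. The testis H2A gene H2ac1 was at 7.20 and 7.66 on the BLM arrays, against 7.42 and 7.03 on the PBS arrays, with overlapping groups and a difference of 0.21 (-0.02 without BLM replicate 2). H2bc1 passed with dim genes left out of the fit (adjusted p = 0.0481). Of the 7 pseudogenes, 2 rose, both named above, or 28.6% against 15.2% of all genes. The other 5 did not pass, among them H2ac14 at 0.12 and H2af-ps2 at 0.02. With 6 and 7 members, these counts say little about either class.

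Genes of DNA replication, which runs together with histone synthesis, changed in both directions. Among the 41 with a value, 5 rose (15.2% of all genes did), 3 fell (10.1% of all genes did) and 33 did not pass, at a median of -0.04. After cyclic loess scaling 3 were higher and 7 lower, against 12.7% and 12.9% of all genes. With dim genes left out 5 of 36 were higher and 9 lower, against 31.5% and 21.9% of all remaining genes. Pola1, the catalytic subunit gene of the polymerase that primes DNA synthesis, was at 6.76 and 6.68 on the BLM arrays, against 7.41 and 7.52 on the PBS arrays, and fell by 0.74 (SE 0.09, adjusted p = 0.0039). The maintenance methyltransferase gene Dnmt1 fell by 0.60 (SE 0.09), and the cyclin gene Ccne1 and the replication helicase gene Gins1 rose by 0.63 (SE 0.08) and 0.56 (SE 0.10). The Gins1 call ended without BLM replicate 2 (adjusted p = 0.0682).

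Of 28 genes of G2 and mitosis 2 rose, 4 fell and 22 did not pass, at a median of 0.06, or 21.4% called against 25.3% of all genes. With dim genes left out 6 of 26 rose and 5 fell, against 31.5% and 21.9% of all remaining genes. Mki67, the proliferation marker, was at 12.58 and 12.57 on the BLM arrays, against 12.92 and 12.66 on the PBS arrays, and did not pass, at -0.21 (95% interval -0.50 to 0.07). Top2a, the mitotic topoisomerase gene, did not pass either, at -0.17 (95% interval -0.40 to 0.05). The mitotic motor and midzone genes Kif11, Prc1 and Kif23 fell, with differences of -0.53, -0.53 and -0.45, and Cenpa, the histone H3 variant of centromeres, rose by 0.53 (SE 0.10, adjusted p = 0.0172). Without BLM replicate 1 the calls of Cenpa (adjusted p = 0.0932), Prc1 (0.0715) and Kif23 (0.085) ended, without BLM replicate 2 those of Kif11 (0.0675), Prc1 (0.0687) and Kif23 (0.0697), and without PBS replicate 2 that of Cenpa (0.0657).

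The machinery that makes and processes histone mRNA showed 4 of 22 genes higher, 2 lower and 16 not past the threshold, at a median of 0.11. The share called, 27.3%, was near the 25.3% of all genes, and without any 1 array 1 to 2 rose and 0 to 1 fell. Slbp, the stem-loop binding protein gene, was at 7.58 and 7.57 on the BLM arrays, against 7.66 and 7.70 on the PBS arrays, and did not pass (difference -0.11, 95% interval -0.31 to 0.09). Npat, the gene of the factor that drives transcription of histone clusters, did not pass at 0.18. Snrpd3, a core protein gene of small nuclear ribonucleoproteins, the U7 particle that cuts histone mRNA included, was at 12.53 and 12.34 on the BLM arrays, against 11.57 and 11.69 on the PBS arrays, and rose by 0.80 (SE 0.10, adjusted p = 0.00497). The cleavage factor gene Cstf1 rose by 0.62, the histone locus body gene Casp8ap2 rose by 0.48, and the RNA effector gene Srrt fell by 0.42. These 3 lost their calls without PBS replicate 2 (adjusted p = 0.0574, 0.0598 and 0.0703), Cstf1 and Casp8ap2 without PBS replicate 1 (0.053 and 0.0657), Casp8ap2 and Srrt without BLM replicate 1 (0.106 and 0.114), and Cstf1 and Srrt without BLM replicate 2 (0.0617 and 0.0865).

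Histone chaperones carry histones to DNA and place them there. Among the 29 with a value 5 rose, 5 fell and 19 did not pass, at a median of 0.03, or 34.5% called against 25.3% of all genes. After cyclic loess scaling 3 rose and 10 fell, against 12.7% and 12.9% of all genes. The histone importin gene Ipo4 was at 8.37 and 8.39 on the BLM arrays, against 7.64 and 7.69 on the PBS arrays, and rose by 0.71 (SE 0.08, adjusted p = 0.00324). The assembly protein gene Nap1l1 rose by 0.58 (adjusted p = 0.00741, and 0.0537 without BLM replicate 1) and the centromere loading gene Mis18a by 0.52 (0.0139). Dek, a chromatin protein gene, fell by 0.45 (0.0238). The Mis18a and Dek calls needed BLM replicate 1 (adjusted p of 0.083 and 0.129 where it was missing) and PBS replicate 2 (0.0516 and 0.0673), and that of Dek also PBS replicate 1 (0.0816).

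Of 9 high mobility group and heterochromatin protein genes 3 rose, 3 fell and 3 did not pass, or 66.7% called against 25.3% of all genes. Without any 1 array 0 to 3 rose and 1 fell. Hmgb2, a DNA-bending chromatin protein gene abundant in dividing cells, was at 8.44 and 8.52 on the BLM arrays, against 9.47 and 9.37 on the PBS arrays, and fell by 0.94 (SE 0.09, adjusted p = 0.00194). Hmga2, an architectural protein gene of fetal tissue, rose by 0.64 (adjusted p = 0.00881, and 0.0557 without BLM replicate 1). Hmgn3 and Cbx1 both rose by 0.45, and each lost its call without BLM replicate 1 (0.0826 and 0.117), BLM replicate 2 (0.117 and 0.0886) or PBS replicate 1 (0.078 and 0.0753).

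**Figure D4:**
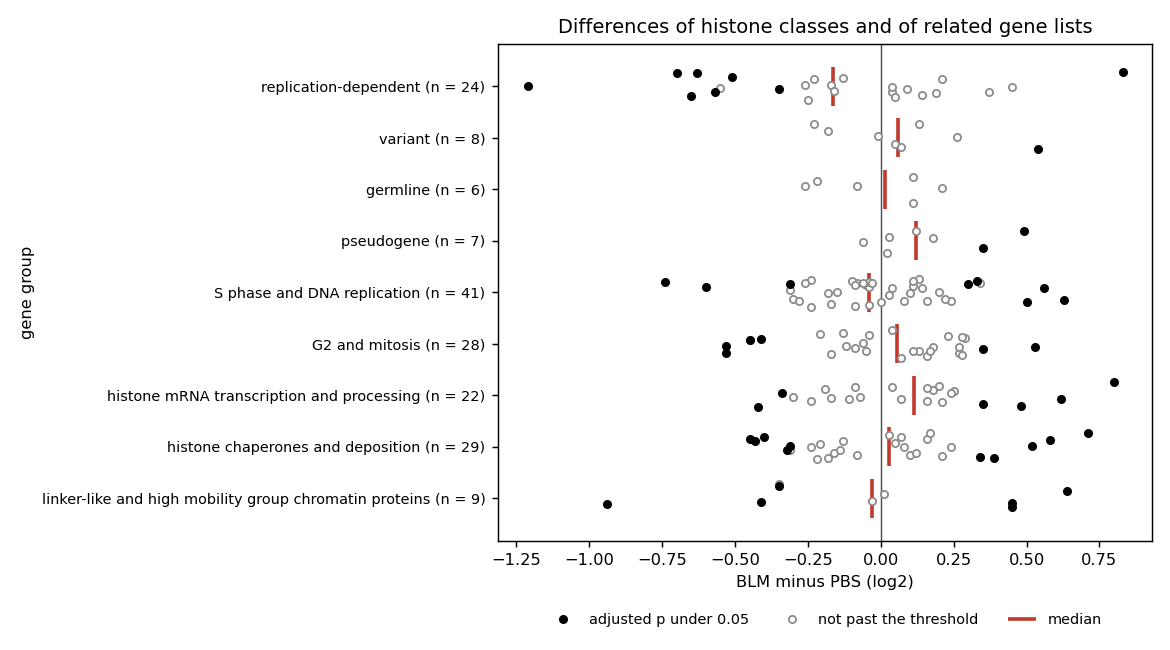
BLM minus PBS differences (log2) of each gene in the 4 histone classes and in 5 lists of related genes, with filled points for an adjusted p under 0.05, open points for the rest and a bar at the median of each group. The replication-dependent genes have their median at -0.17 with 7 filled points below 0 and 1 above, while the medians of the other groups lie between -0.04 and 0.12.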

How the data were processed

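The authors deposited 1 log2 value for each transcript cluster and array. Per the submitters' processing notes they used RMA, which removes background, equalises the arrays' distributions and condenses probes, and Affymetrix Expression Console. Software versions, the array's genome build and any further scaling are not given in the sources, while the highest value, 19.91, is above what a 16-bit scan can hold on a log2 scale. The number of arrays limits the precision (median SE of a difference 0.0969).

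Of 72688 rows, 30604 name 1 symbol. Symbols were updated through RefSeq identifiers, 3 histone rows through a synonym, and the highest-mean row per gene was kept, which left 30141 genes, 29839 of them in the RefSeq table. No filter on low values was applied. BLM was compared with PBS in limma 3.58.1 under R 4.3.3 (lmFit and eBayes, two-sided, 2 residual and 3.33 prior degrees of freedom), and the fit was checked on simulated data. Members, gene lists and tests were chosen with earlier results of these data known. Lists are described by counts and medians. Named were all variant and germline members, the 12 replication-dependent members with the largest differences past the threshold (8 passed), the 4 with the highest mean, 4 genes per list and a fixed panel. Other genes were named after their values were seen. Alternatives were a replicate block, leaving out each array, a filter on dim genes, averaging the rows of a gene, a trended robust prior, centring each array on its median, cyclic loess and leaving out genes of the X and Y chromosomes. Those chosen after seeing the data were the literal rule, members with a mean above 6 and the rows with several symbols.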

Additional observations from a re-analysis of the deposited data

How the results depend on the processing

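The array numbers share only a number, since same-numbered arrays did not deviate together (correlation 0.014 across genes), and a replicate block brought all calls to 6743, against 7629 without it. Fits without 1 array assume that the lone array of a group varies like the other group, and no setting recovers the animal as a unit.

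Without each array in turn, replication-dependent counts ran from 1 to 5 lower and from 0 to 2 higher, and their median from -0.20 to -0.09. Of the 8 calls, 3 remained without BLM replicate 1, 2 without BLM replicate 2, 3 without PBS replicate 1 and 5 without PBS replicate 2, and all 8 remained with cyclic loess, median centring, the trended robust prior, the mean of a gene's rows and without genes of the X and Y chromosomes. The replicate block kept 7, without H2ac20 (adjusted p = 0.0616), and it ended the calls of H3f3a-ps1 (0.0596) and H3f3a-ps2 (0.0562). Leaving out dim genes also kept 7, since it removes H2ac18. With dim genes left out, and among members with a mean above 6, the median was -0.35 over 11 genes, fewer than the 24 by construction. Variant counts ran from 0 to 1 higher and stayed at 0 lower without each array, and stood at 2 higher with dim genes left out and at 0 higher and 1 lower with cyclic loess. Germline counts stayed at 0, except for 1 lower with dim genes left out, and the germline median ran from -0.09 to 0.06.

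Without each array in turn, the replication list had 2 to 3 higher and 2 lower, that of G2 and mitosis 0 to 1 higher and 0 to 3 lower, histone mRNA processing 1 to 2 higher and 0 to 1 lower, chaperones 1 to 3 higher and 0 to 1 lower, and high mobility group and heterochromatin genes 0 to 3 higher and 1 lower. The replicate block gave 3 higher for replication, 1 higher for G2 and mitosis, 1 lower for mRNA processing and 3 lower for chaperones. Cyclic loess gave 3 higher and 7 lower for replication and 3 higher and 10 lower for chaperones. In that fit 12.7% of all genes were higher and 12.9% lower. With dim genes left out replication had 9 lower and G2 and mitosis had 6 higher, while 21.9% of all remaining genes were lower and 31.5% higher. Replication had 5 lower with the trended prior and with median centring, and G2 and mitosis had 4 higher with the trended prior. The cause of these shifts was not tested.

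Signs turned in 15 of the 45 members, none of them past the threshold. Among the named ones these were H1f10 with cyclic loess (-0.00), H2ac10 with cyclic loess (-0.12) and without PBS replicate 2 (-0.09, up to 0.20 without another array), H2ax without PBS replicate 2 (-0.01, up to 0.14), H2ac1 without BLM replicate 2 (-0.02, up to 0.44), H2aj without BLM replicate 2 (0.16, down to -0.51), H2az2 without BLM replicate 2 (0.01) or PBS replicate 1 (0.00), and Macroh2a1 with the mean of its rows (-0.04). H2bc14 turned without BLM replicate 1 (-0.11) and PBS replicate 1 (-0.03), H2bc3 without BLM replicate 2 (-0.10), H3c8 without BLM replicate 2 (0.19) and PBS replicate 1 (0.17), and H2ac14 without PBS replicate 2 (-0.03) and with cyclic loess (-0.06). The other 4 were H2bc9 and the pseudogenes H2af-ps1, H2af-ps2 and H2bu1-ps. Over the genes named by rule, histone and other, 486 values kept their direction and their side of the threshold, 54 lost the call, 3 gained it and 9 changed sign. Genes named after their values were seen, such as H2bc12, H3c3 and the H3.3 pseudogenes, are not in these counts.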
